A study of Mus musculus with 2 samples.

Results

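The genes of the cytoplasmic ribosomal proteins were followed by long-read sequencing in the hearts of 14-day-old mice, females of the F1 hybrid B6CASTF1/J. Genes were taken by name, as symbols that begin with Rpl or Rps and go on with a number, an a or a p and a number, so that numbered pseudogenes and the mitochondrial ribosomal proteins were left out. Of 16310 annotated genes with reads, 83 were members: 49 of the large subunit and 34 of the small subunit. All 83 had reads in both libraries, and 82 had at least 3 reads in each. The annotation, GENCODE M21 on mm10, holds 89 genes that match the rule. The other 6 had no read in either library: Rpl10l, Rpl39l and 4 processed pseudogenes named Rpl32l, Rpl6l, Rps12l1 and Rps3a3. The study had 1 group of 2 libraries, biological replicates 1 and 2 per the labels, with no treatment and no other genotype, so the only comparison was between the libraries. The labels describe the tissue of replicate 1 as that of several females and that of replicate 2 as that of a single female, yet carry the wording for several females with both libraries and give both the same donor entry, so which animals each came from is not clear. Every p-value and interval therefore covers counting error in these libraries, and the spread between them may be technical.

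A cytoplasmic ribosome is built of a large subunit, which joins amino acids, and a small subunit, which decodes the messenger RNA. Each holds ribosomal RNA and a set of proteins, most of them present once per ribosome. Mammalian ribosomal protein messengers are short, abundant and spliced, often start with a run of pyrimidines at which translation is controlled, and have left many intronless processed pseudogenes in the genome. Striated muscle is known for a paralog of its own, Rpl3l, beside the common Rpl3.

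Replicate 1 held 884718 reads other than spike-ins and replicate 2 held 959334, so a single read was worth 1.13 and 1.04 CPM, the count scaled by the library total. A count of 0 allowed up to 3 reads, or 3.39 and 3.13 CPM. Each long read was counted as 1 molecule, and levels were compared between genes without division by length. Whether short and long transcripts were read equally well was not tested, and the libraries differed with length, as given below. All 8 cardiomyocyte markers were detected, with 46014.7 and 47602.8 CPM summed over the list, and none of 6 skeletal muscle markers was detected, at 3 and 2 reads in all. Of 4 lung markers, Scgb1a1 was detected, with 111 reads in replicate 1 and 7 in replicate 2. The 5 erythroid genes summed to 16119.3 and 13854.4 CPM.

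Splice forms of 5 members differed by 3 to 18 bases at 1 splice site. The sequences around these sites are shown because the reads of those genes were divided by them, except in Rps24, where most reads held the bases shown. Capitals mark the bases that only 1 of the forms holds, and lower case marks the neighbouring bases on the same strand, from the GENCODE M21 transcripts.
Rps24, chr14:24494064-24494093, plus strand: tagcagGTACTGCCATTGGGCACGgtgtgg
Rpl7l1, chr17:46778037-46778061, minus strand: gcaggagcagGTGAGgcgagtgtgt
Rps28, chr17:33823183-33823206, minus strand: cttgcagctgGTGGgtaagtggca
Rpl22l1, chr3:28806500-28806512, plus strand: CAGaaagacaaga
Rpl38, chr11:114668610-114668626, plus strand: GTGAGTGTGCTGGGCAG
In Rps24 the capitals follow an annotated exon of 18 bases, which they lengthen to 36. In Rpl7l1 and Rps28 they lengthen an internal exon by 5 and by 4 bases at its 3′ end, and in Rpl22l1 they lengthen one by 3 bases at its 5′ end. By the annotated coding forms, the bases lie after the stop codon in Rps24, Rpl7l1 and Rps28, before the start codon in Rpl38, and inside the coding part, as a whole number of codons, in Rpl22l1.

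The members together gave 9332 reads in replicate 1 and 11958 in replicate 2, or 1.05% (exact Clopper-Pearson 95% interval 1.03% to 1.08%) and 1.25% (1.22% to 1.27%) of the reads. Their sum was 11506.4 ± 1355 CPM (SD, n = 2), with 7839.1 ± 763 CPM on the large subunit genes and 3667.3 ± 592 CPM on the small subunit genes. The median gene of the large subunit stood at 102 ± 4.11 CPM and that of the small subunit at 105 ± 16.2, so the medians differed by less than the spread between libraries and the sums by more. In bulk tissue, fewer cells of a type and less RNA per cell cannot be told apart. The median member, at 103 ± 10.2 CPM, lay above the median of 16.8 ± 0.195 CPM over the 13070 annotated genes with reads in both libraries.

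Although subunits hold most of these proteins once each, the messenger levels covered a wide range. The middle of the members lay between 50.5 ± 6.70 CPM at the lower quartile and 151 ± 16.3 CPM at the upper. The 10 highest genes took 40.5% ± 1.32 of all member reads. Across the 82 members with an annotated model, mean CPM and the length of the leading annotated model had a Spearman rho of 0.20, given as a description over genes of the same libraries.

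**Figure D1:**
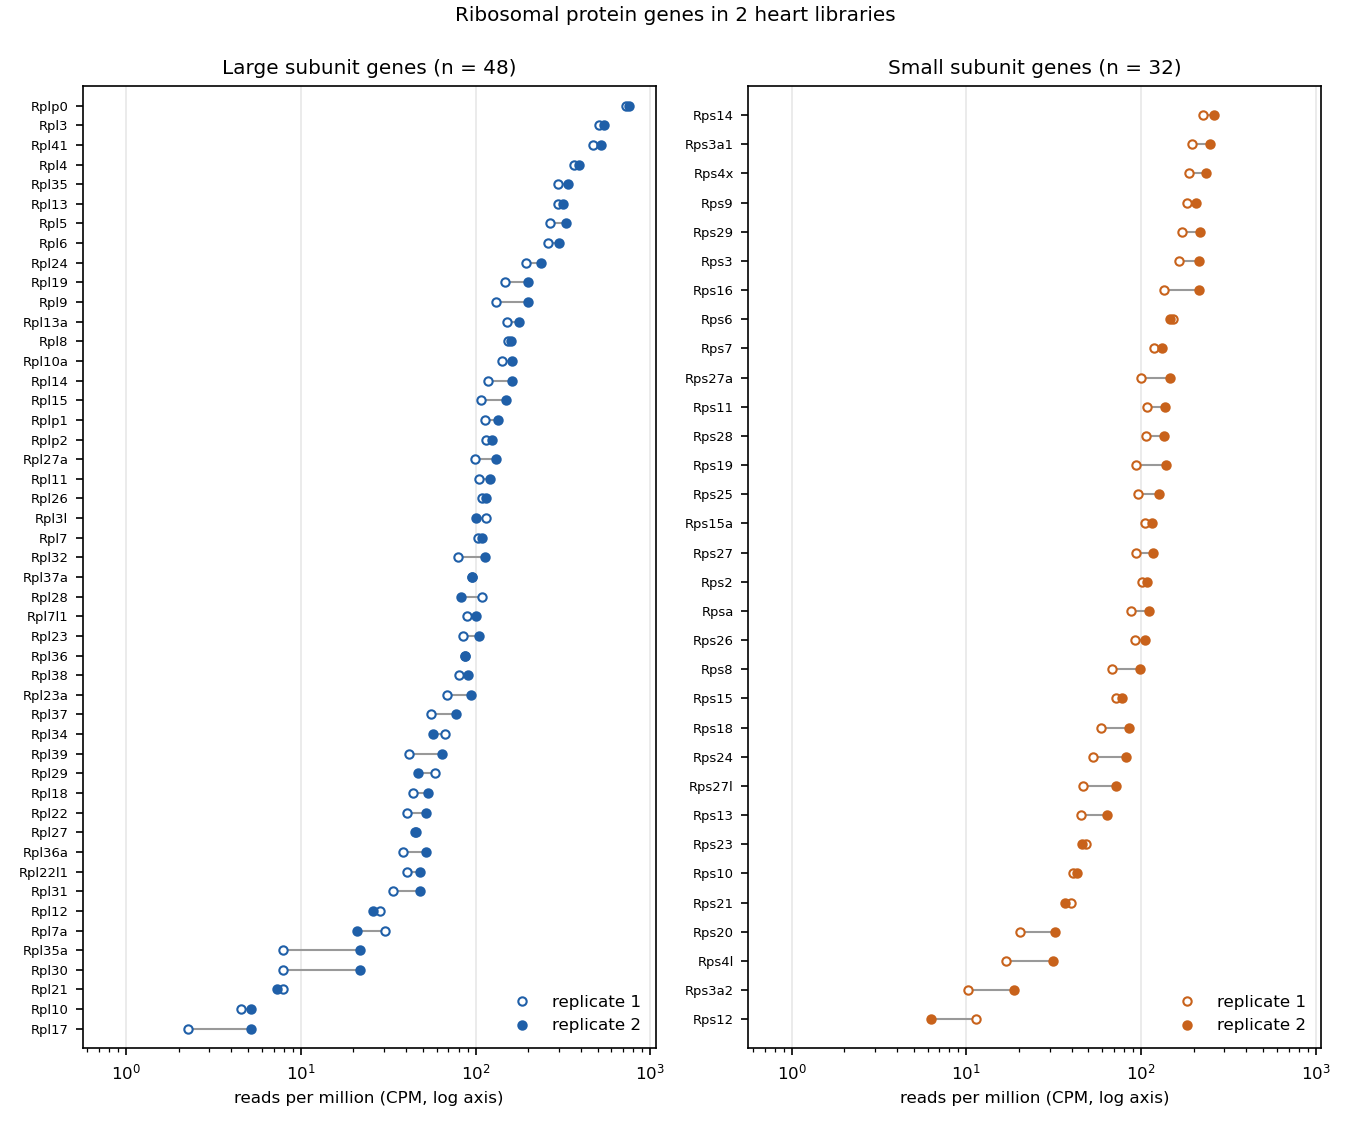
Scaled read count (CPM, log axis) of 80 of the 83 ribosomal protein genes, large subunit on the left and small subunit on the right, with an open circle for replicate 1, a filled circle for replicate 2 and a line between them. Mean levels reach from 742.2 CPM for Rplp0 down to 3.74 CPM for Rpl17, and most genes lie higher in replicate 2.

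Of the 10 highest members, 9 were large subunit genes. Rplp0, the stem of the acidic stalk that engages translation factors (ENSMUSG00000067274.10; chromosome 5, 115559467 to 115563727), had 640 reads in replicate 1 and 730 in replicate 2, or 742.2 ± 26.6 CPM. Rpl3, which lines the peptidyl transferase centre, had 450 and 521 reads. Counting reads on the genes themselves, Rplp0 stood above Rpl3 by more than the spread between libraries. Near-identical pseudogene copies, described below, held 199 and 219 further reads for Rpl3, and 22 in each library for Rplp0. With these reads added, Rplp0 would stay above Rpl3 in each library, but by less than the spread between libraries. Rpl41, which encodes a very short basic peptide, had 417 and 500 reads, or 496 ± 35.3 CPM, beside 526 ± 24.4 CPM for Rpl3, and the ranges of these genes over the libraries overlapped. Rpl4 followed at 378 ± 16.0 CPM, Rpl35 at 317 ± 27.9, Rpl13 at 308 ± 13.8, Rpl5 at 298 ± 45.1 and Rpl6 at 280.1 ± 26.9. Neighbours among the last 4 differed by less than their spread. Rps14, a small subunit protein of the platform, closed the 10 at 244 ± 24.4 CPM.

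The other members of the stalk were lower than Rplp0. Rplp1 had 100 and 129 reads, or 124 ± 15.2 CPM, and Rplp2 had 102 and 120 reads, or 120 ± 6.93 CPM. The ribosome holds more copies of both than of Rplp0, and the messengers were in the opposite order. Rpsa, a small subunit protein also known as a laminin receptor, had 78 and 106 reads, or 99.3 ± 15.8 CPM. Among ribosomal genes whose names the rule does not take, Fau, a fusion with a small subunit protein, had 77 and 101 reads, and Rack1, a scaffold on the small subunit, had 63 and 82.

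The lowest members had few reads. Rpl17 had 2 reads in replicate 1 and 5 in replicate 2 and was the member below 3 reads in a library. Rpl10, a late-joining protein near the peptidyl transferase centre, had 4 and 5 reads, or 4.87 ± 0.488 CPM. Rpl21 had 7 reads in each library and Rps12 had 10 and 6. Rpl35a and Rpl30 each had 7 reads in replicate 1 and 21 in replicate 2. Rps3a2 had 9 and 18 reads and Rps4l had 15 and 30, and the annotation calls both processed pseudogenes. Rpl7a, Rps20 and Rpl12 completed the 10 lowest detected members, from 25.7 ± 6.84 CPM for Rpl7a to 27.2 ± 1.55 for Rpl12.

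Reads of ribosomal protein genes can be placed on near-identical pseudogenes. The coding sequence of 81 members was therefore searched in the annotated transcripts of all genes that are not members. Rps4l and Rps3a2 are members, so they could not be found as copies. At 90% identity over 80% of the coding sequence, 76 members had at least 1 copy annotated as a pseudogene, 967 copies in all, and 145 of the copies had reads. The copies held 1963 reads in replicate 1 and 2442 in replicate 2, which was 17.4% and 17.0% of the reads on members and copies together. In 10 members the copies held more reads than the gene itself in both libraries: Rps6, Rps19, Rps2, Rpl37, Rps13, Rpl27, Rpl30, Rpl35a, Rpl21 and Rpl17. Rpl17, Rpl21, Rpl30 and Rpl35a are among the lowest members, with 33, 107, 25 and 87 copy reads in replicate 1 and 50, 127, 31 and 125 in replicate 2. For Rps2 the count was 89 and 104 reads on the gene against 178 and 214 on its copies, of which Rps2-ps13 on the X chromosome held 160 and 190 at 99.2% identity. For Rps6 it was 135 and 141 reads against 175 on the copies in each library.

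Copies of other annotated types were counted apart, 23 of them, 11 with reads. Rpl10-ps3, which the annotation calls protein coding and which is identical to the coding sequence of Rpl10, had 50 and 81 reads, against 4 and 5 on Rpl10 itself. Rps27rt, identical to Rps27 in its coding part, had 26 and 40 reads, against 83 and 113 on Rps27. A copy of Rpl21 lies inside BC004004, a gene of its own with 193 and 217 reads. Whether a read placed on a copy came from it or from the parent gene was not tested. For Rpl5, Gm15500, identical in the coding part, held 138 and 191 reads. Rps3, Rpl8, Rplp2 and Rpl3l had no such copy. Reads on the opposite strand lay over 21 members, 141 and 121 in all.

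**Figure D2:**
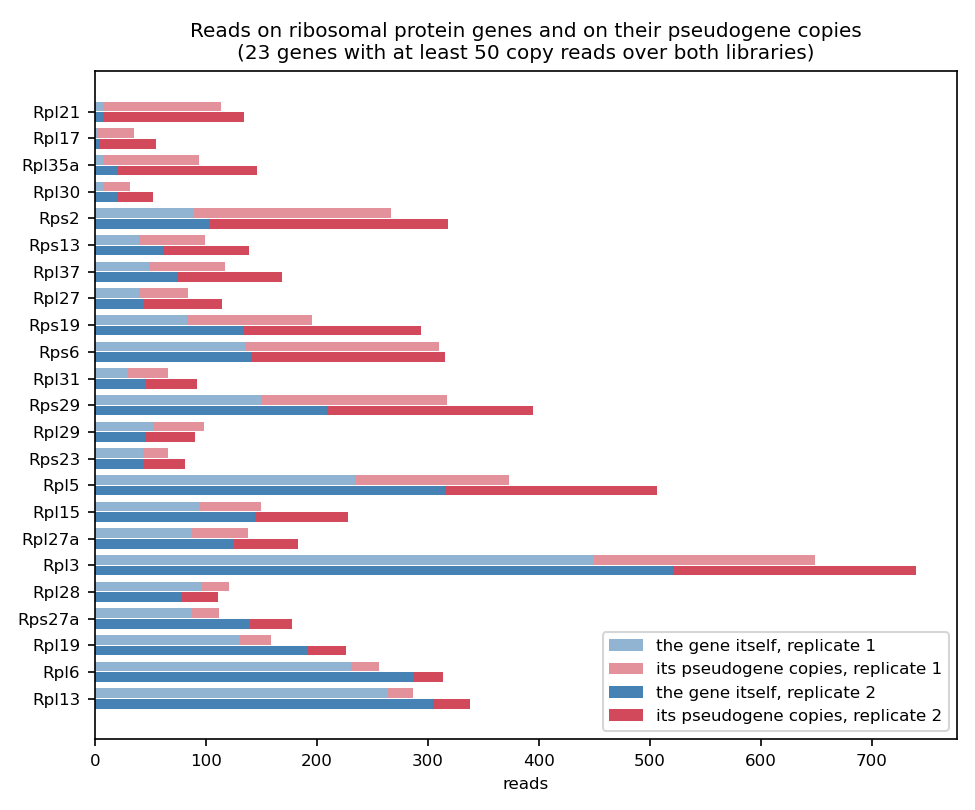
Reads on each ribosomal protein gene (blue) and on its pseudogene copies (red), replicate 1 pale and replicate 2 dark, for the 23 genes with at least 50 copy reads over both libraries. The red part is longer than the blue part for Rpl21, Rpl17, Rpl35a, Rpl30, Rps2, Rps13, Rpl37, Rpl27, Rps19 and Rps6.

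The paralogs that keep a gene name of their own have less alike coding sequences. Rpl3l shares 73.2% of its coding bases with Rpl3. It had 102 reads in replicate 1 and 96 in replicate 2, which was 18.5% (exact interval 15.3% to 22.0%) and 15.6% (12.8% to 18.7%) of the reads of the pair, or 108 ± 10.8 CPM. The 199 and 219 reads on pseudogene copies of Rpl3 were not counted in the pair, and Rpl3l had no such copy. Counting them with Rpl3 would lower the share of Rpl3l. Rpl22l1, the paralog of the RNA-binding protein Rpl22, had 36 and 46 reads against 36 and 50, so the pair was near an even split, at 49.0% ± 1.47 for Rpl22l1. Rpl7l1 had 79 and 97 reads against 91 and 105 on Rpl7, a share of 47.2% ± 1.10. Rps27l, known as a target of p53, had 41 and 69 reads, a share of 35.5% ± 3.43. Rps4l had 10.0% ± 2.49 of the reads of its pair with Rps4x. It is annotated as a processed pseudogene without a coding form, so its likeness to Rps4x was not measured. Rpl36al, outside the name rule, had 59 and 86 reads against 34 and 50 on Rpl36a, and so held the larger share, 63.3% ± 0.145. These 6 shares were compared between the libraries by Fisher's exact test, two-sided, and none passed after Benjamini-Hochberg adjustment, with the lowest adjusted p at 0.80. Rpl39l had no reads beside 37 and 62 on Rpl39. The limit of 3 reads gives a share of up to 8.11% and 4.84%, and the exact interval reaches 9.49% and 5.78%. Rpl10l had no reads either, but Rpl10 had too few reads for a useful limit.

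Each read had been given a class by TALON, the program with which the models were made. Reads on annotated transcripts made up 87.3% and 86.6% of member reads, against 78.8% in each library over all annotated genes. Incomplete reads, whose introns are a part of an annotated chain, made up 11.1% (exact interval 10.5% to 11.8%) and 11.2% (10.7% to 11.8%), against 8.99% and 8.89% over all annotated genes. With each member of at least 50 reads in each library weighted equally, 93.1% of reads were annotated and 4.93% incomplete, so the incomplete share then lay below that of all genes. New combinations of known splice sites made up 0.298% ± 0.0187 of member reads and new splice sites 1.24% ± 0.369, against 5.60% ± 0.151 and 3.44% ± 0.117 over all annotated genes. Genomic reads, which match no splicing pattern, made up 0.344% ± 0.0927, against 3.24% ± 0.295. All these values pooled over the members lay further from those of all genes than the spread between libraries.

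**Figure D3:**
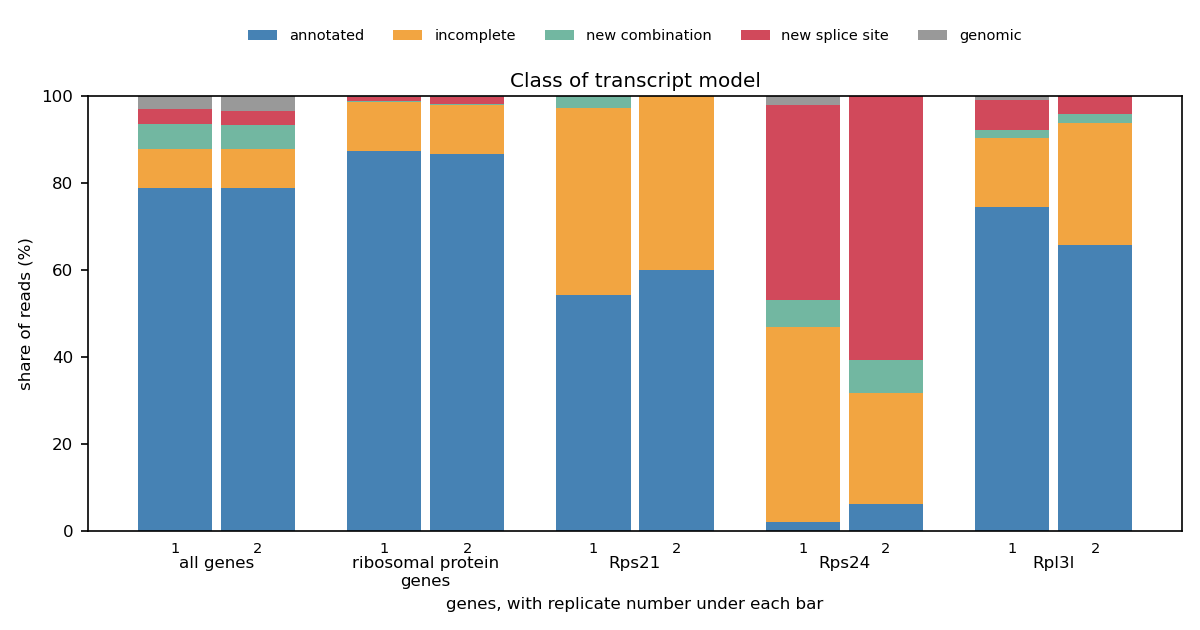
Share of reads (%) in each class of transcript model, 1 stacked bar per library, with the replicate number under it. Rps24 is mostly incomplete or with a new splice site, Rps21 is 41.4% incomplete, and the ribosomal protein genes are 87.3% and 86.6% annotated.

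Over all members, 988 of the 1040 incomplete replicate 1 reads and 1283 of the 1341 incomplete replicate 2 reads lacked, by their introns, the 5′ part only. Over all annotated genes, 78.52% of the incomplete reads in replicate 1 and 78.99% in replicate 2 lacked that part only. Most incomplete reads of these libraries were thus of this kind, in members and in all genes. Among members with at least 50 reads in each library, high incomplete shares were 21.9% ± 8.80 in Rpl3l, 15.5% ± 2.04 in Rpsa, 14.6% ± 3.67 in Rps15 and 13.2% ± 3.38 in Rpl6. Rps21, with 35 reads in each library, had 41.4% ± 2.02. There, the full transcript Rps21-201, with 6 exons and 394 bases, held 19 and 21 reads, and a model of its last 2 exons, 121 bases long, held 8 in each library. Among members with at least 50 reads in each library, genomic reads were highest in Rps27a, a fusion of ubiquitin and a small subunit protein, with 7 of 88 and 9 of 140, and the next were Rps9, Rpl7l1, Rpl32 and Rps4x, at 1.07% to 0.889% with at most 4 such reads in a library.

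Reads on annotated transcripts without a coding biotype made up 3.95% (exact interval 3.54% to 4.40%) and 4.07% (3.69% to 4.46%) of the annotated reads of the 81 coding members, against 1.62% and 1.70% over all protein-coding genes. Rpl5 supplied 200 of the 321 such reads in replicate 1 and 263 of the 419 in replicate 2, and without it the share was 1.55% ± 0.0187. Rpl5 carries, with Rpl11, the small ribosomal RNA of the large subunit (ENSMUSG00000058558.12; chromosome 5, 107900502 to 107909005). There, Rpl5-204, annotated as retained intron with 3 exons, held 199 and 263 reads, and the coding form Rpl5-201, with 8 exons, held 34 and 47. Both introns of Rpl5-204 are also the last introns of Rpl5-201, and its first exon begins further upstream than the matching exon of Rpl5-201. By introns alone, a retained intron form and a shortened coding transcript cannot be told apart. Of the 321 and 419 reads, 279 and 364 were on forms whose introns are a stretch of those of a coding form, 26 and 37 on a form with the same introns as a coding form, which was Rpl22-205, and 12 and 13 on forms with a splicing pattern of their own. Nonsense-mediated decay forms held 5 and 4 reads. Other high shares among members with at least 50 reads in each library were 7.96% ± 3.74 in Rpl23, 6.04% ± 1.56 in Rps26 and 4.40% ± 1.71 in Rpl26.

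**Figure D4:**
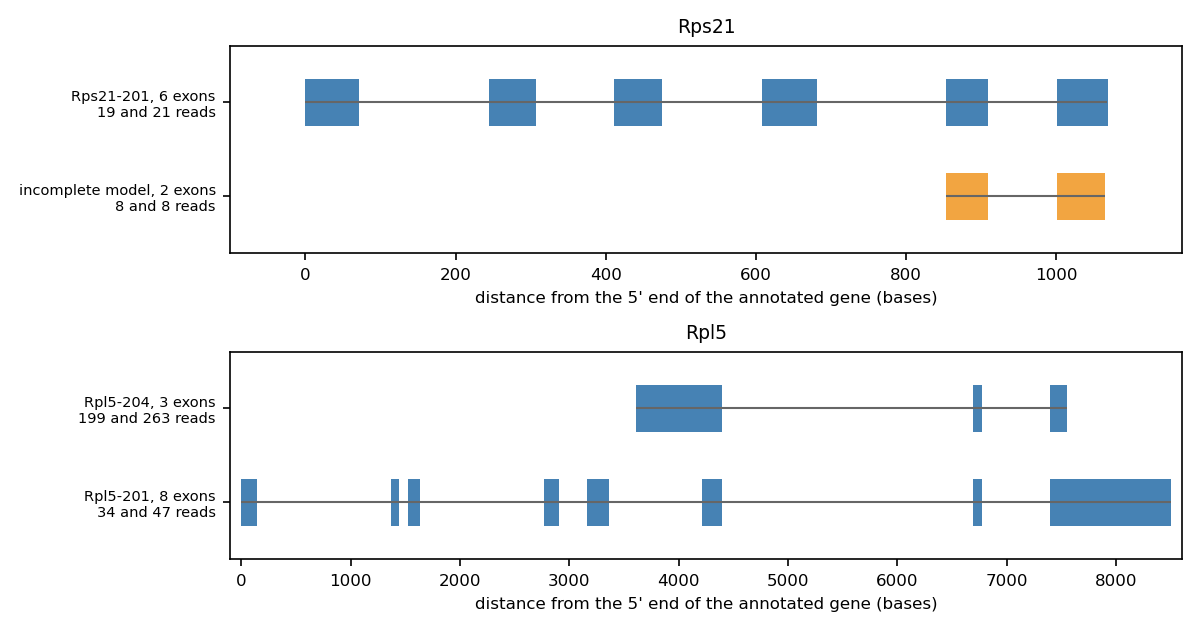
Exons (boxes) and introns (lines) of the leading models of Rps21 and Rpl5, drawn to scale from the 5′ end of the annotated gene, with annotated models in blue, incomplete models in orange, and the reads of replicates 1 and 2 beside each. The incomplete model of Rps21 holds its last 2 exons, and Rpl5-204, with 199 and 263 reads, shares its introns with the 3′ part of Rpl5-201.

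Most members had 1 dominant splice form. Forms were taken as distinct intron chains, annotated or with at least 5 reads in each library, with incomplete and genomic reads left out. Of 72 members with at least 20 such reads in each library, 15 had a leading form under 90%, which was 20.8%, against 31% of the 4348 genes of any kind. The leading form held all such reads in 13 members, and the median leading share was 97.3%, against 98.2% over all genes. Between the libraries the leading form of none of the 59 members with several forms differed (Fisher's exact test, adjusted by Benjamini and Hochberg), beside 0.0728% of all 2747 genes tested. An unadjusted p below 0.05 was found in 2 of the 59 members, Rpl7l1 among them, beside 96 of the 2747 genes.

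In 8 of the 15 divided members, the second form had splice sites of its own. Rpl31, named with Rpl29, Rpl27 and Rps21 after their values were seen, was the most divided, with 11 of 30 and 24 of 41 reads on Rpl31-201, or 47.6% ± 15.5, and the rest mainly on Rpl31-202 and Rpl31-203. Rpl38 had 48 of 70 and 52 of 86 reads on Rpl38-204, and 20 and 30 on Rpl38-201, which holds the additional 17 bases printed above. In Rpl22l1, Rpl22l1-206, without the additional codon, had 20 of 33 and 32 of 46 reads. Rps28-205, with the 4 additional bases, had 65 of 93 and 102 of 128 reads. Rpl15, Rpl29 and Rpl34 led with 86.4% ± 0.807, 86.0% ± 3.75 and 84.6% ± 6.57, and their second forms used another 5′ splice site, 136 bases away in Rpl15, 63 in Rpl29 and 197 in Rpl34. In the remaining 7 the introns of 1 form are a stretch of those of the other, as in Rpl5. Among these, Rpl27, Rpl28, Rpl8, Rps2 and Rps27a had leading forms of 70.1% to 88.5%. There too a separate start and a shortened read have the same introns.

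Of 225 internal exons of members with at least 20 spanning reads in each library, 7 were included in 5 to 95% of reads, in Rps24, Rpl22l1, Rpl7l1 and Rps28. Longer and shorter versions of an exon were counted apart. In Rpl22l1, Rpl7l1 and Rps28 such versions of the same exon together held all spanning reads, so none of these reads skipped it. Over all genes, 7.15% of such exons were partly included. None of the 7 differed between libraries by Fisher's exact test after Benjamini-Hochberg adjustment, nor did any of the 1550 such exons of all genes (0%), of which 67 had an unadjusted p below 0.05. The shorter form of the Rpl7l1 exon, 220 bases, had 49 of the 70 replicate 1 reads and 37 of the 77 replicate 2 reads, 59.0% ± 15.5 (exact p = 0.0078, adjusted p = 0.93). The 138-base form of the Rps28 exon stood at 76.4% ± 4.65 and the 90-base form of the Rpl22l1 exon at 71.4% ± 6.73.

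New spliced forms were few. With at least 5 reads in each library there were 2 among the 83 members, beside 1241 over all genes, where 16310 annotated genes had reads. In Rpl7l1, the 5 additional bases printed above gave a form of 7 exons with 21 of 79 and 40 of 97 reads. In Rps24, a small subunit protein known for tissue-dependent short exons near its stop codon, the form with the 36-base exon (chromosome 14, 24494052 to 24494087) had 21 of 47 and 48 of 79 reads. Incomplete models held the same exon in 19 more reads in each library. In all it was held by 41 of 47 reads (87.2%, exact interval 74.3% to 95.2%) and 69 of 79 reads (87.3%, 78.0% to 93.8%), and the annotated 18-base exon by 1 and 3.

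Start sequences were read from RefSeq on GRCm38.p6, where 61 of the 83 members were found. A C as the first base followed by 4 bases that are each C or T, the pattern of a pyrimidine-led start, was present in 13 of the 61 genes, 21.3%, against 3.01% of the 27025 genes of the table. It was searched on the transcribed strand only, exactly at the listed start. The median level was 106 CPM in the 13 genes with it and in the 48 without it. The starts of Rpl35 and Rps27, with the pattern, and of Rplp0, without it, are shown with the first 5 transcribed bases in capitals.
Rpl35, chr2:39005117-39005141, minus strand: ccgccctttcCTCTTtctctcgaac
Rps27, chr3:90213634-90213658, minus strand: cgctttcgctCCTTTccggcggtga
Rplp0, chr5:115559457-115559481, plus strand: cgggtttcgaGGACCgcctggttct
A listed start that is a few bases off the true one would hide the pattern, so its absence in this window says nothing of the gene. By position, 14 of the 83 members, 16.9%, lie on chromosome 7, against 7.60% of annotated genes with reads.

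Between the libraries, the members were a little higher in replicate 2. Among 81 members with at least 10 reads in all, 3 were higher in replicate 2 and none lower by a two-sided exact binomial test with Benjamini-Hochberg adjustment over 9907 genes, beside 0.797% of all genes called higher, 0.888% called lower and 1.69% called either way. Rps16, of the small subunit, had 120 and 205 reads, or 136 and 214 CPM, a log2 ratio of (CPM + 1) of 0.65 (exact interval 0.32 to 0.99, exact adjusted p = 0.0070). Rpl9, of the large subunit, had 116 and 192 reads, a ratio of 0.61 (exact interval 0.27 to 0.96, exact adjusted p = 0.024). Another 20 members had an unadjusted p below 0.05. With those that passed, this made 23 of the 81 members, all higher in replicate 2, beside 905 of the 9907 genes.

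The median log2 ratio of the 81 members was 0.26, 0.20 in the large subunit and 0.33 in the small subunit, against 0.00 over all genes tested. Of the 81, 69 were higher in replicate 2, 85.2%, against 50.1% of all genes. The libraries also differed with transcript length. The members' leading models had a median length of 792 bases, against 2607 over all genes tested, and the other 936 genes under 1000 bases had a median log2 ratio of 0.20, with 69.2% of them higher in replicate 2. With the trend over length subtracted, no member passed the test and the members' median was 0.094. Of the 8 cardiomyocyte markers, 4 were higher in replicate 2 and none lower by the same test, with a median log2 ratio of 0.17. The erythroid list, with 4 of 5 genes lower in replicate 2, and Scgb1a1, 111 and 7 reads, also moved between the libraries, and the part of these lists in the members' difference was not tested.

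**Figure D5:**
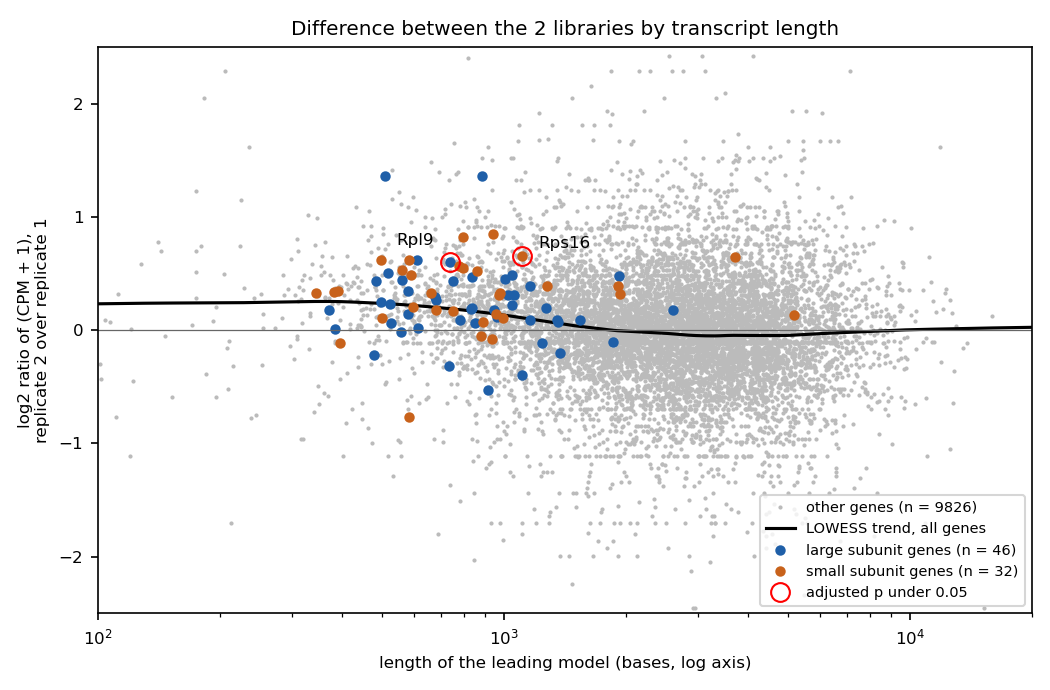
The log2 ratio of (CPM + 1), replicate 2 over replicate 1, against the length of each gene's leading model (bases, log axis), for other genes (grey) and 78 ribosomal protein genes, large subunit genes (blue) and small subunit genes (orange), with the smoothed trend over all genes in black and Rps16 and Rpl9, with an adjusted p under 0.05, ringed. The axes leave out 54 genes, none of them ribosomal protein genes. The trend lies above 0 for short models, where most of the ribosomal protein genes are.

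The other genes of the ribosome system gave these values. Of 26 genes of ribosome assembly and ribosomal RNA synthesis, 25 were detected and 25 tested, and none passed in either direction, with a median log2 ratio of 0.055. The 12 genes that control translation of these messengers were all detected and tested, none passed, and their median was 0.038. None of the 4 ribosomal genes outside the name rule passed, and among them Fau, Rack1 and Rpl36al had ratios of 0.27, 0.26 and 0.42.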

How the data were processed

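Long-read RNA-seq of total RNA with spike-ins was analysed in 2 heart libraries. The deposited tables give whole-number read counts per transcript model, made by the authors with TALON on mm10 with GENCODE M21, separately for each library, as the text deposited beside them and the model files say. Aligner, settings and versions: not given in the sources used here. CPM, reads scaled to a library total, was computed over reads other than spike-ins. The members and lists were chosen with earlier results of these data known. Genes were tested between libraries by a two-sided exact binomial test with at least 10 reads in all, and forms, exons and pairs by Fisher's exact test, each with Benjamini-Hochberg adjustment at 0.05. Unannotated genes are named separately in each library, so the 829 with at least 10 reads were left out, which departs from the planned test of all genes. Log2 ratios used a pseudocount of 1 CPM, and the length trend was a LOWESS fit with fraction 0.3. Intervals are 95% Clopper-Pearson and, like the limits of 3 reads, cover counting error only. Genes were named as all paralog pairs, the 10 highest and 10 lowest detected members, members below 3 reads, members that passed between libraries, divided members whose usable reads reached 50 in both libraries, the 5 with the highest genomic, incomplete or noncoding-biotype share, new forms, partly included exons, and Rps24, Rpsa, Rplp0, Rplp1 and Rplp2. Some genes that this rule takes are not reported here. The scripts were tested on simulated data.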

Additional observations from a re-analysis of the deposited data

How the results depend on the processing

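With the trend over transcript length subtracted, 0 members differed between the libraries and the median log2 ratio of the members was 0.094. Totals scaled by edgeR TMM or DESeq2 size factors, or with spike-ins, also gave 3, with Rpl9 and Rps16 among them. Annotated models alone gave 2, Rpl9 and Rps16, and a minimum of 50 reads gave 4. On annotated models alone, the summed CPM was 13191.9, with 8652.78 on the large and 4539.15 on the small subunit, partly included exons numbered 4, and the shares were 12.9% for Rpl3l, 55.7% for Rpl22l1 and 33.0% for Rpl7l1. A minimum of 50 reads also left 4 such exons. Without genomic reads the share of Rpl22l1 was 51.4%. With each member of at least 50 reads weighted equally, annotated reads made up 93.1%, incomplete reads 4.93% and new combinations 0.236%. An alternative chosen after seeing the data left out Rpl5, which gave 1.55% of reads on forms without a coding biotype. A minimum of 2 reads gave 7 unannotated forms. Of the 83 members' levels, 6 moved by more than the spread between libraries without genomic reads. In other alternatives added after seeing the data, 17 moved without incomplete reads and 29 with copy reads added. In either library alone, the summed CPM ran from 10548 to 12464.9, members with a divided leading form from 15 to 17, and partly included exons from 6 to 7. Against all genes, the incomplete share of the members lay above when pooled and below at equal weight, and the share without a coding biotype lay above with Rpl5 and below without it. Rpl22l1 went from just under to just over an even split with Rpl22 on annotated models and without genomic reads. No paired analysis was possible because the study has 1 group. Low depth limits the members with few reads: 7 had at most 10 reads in a library.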
